A study of Homo sapiens with 36 samples.

Results

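The TALE homeobox genes other than MEIS1 and MEIS2 were followed in human neural stem cells (hNSC) in which either MEIS gene had been activated or knocked out. They were taken by symbol from the deposited gene counts, and all 8 listed symbols (MEIS3, PBX2, PBX3, PBX4, PKNOX1, PKNOX2, TGIF1 and TGIF2) were found among 28516 genes. All 8 passed the minimum of 10 counts summed over the libraries, which left 19689 genes for testing. Poly-A RNA was sequenced from commercial hNSC of Gibco at 48 h after lentiviral infection, in 6 treatments of 6 libraries. Cells of MEIS1-OE and MEIS2-OE carried a CRISPR-activation system, a Cas9 without cutting activity that brings activation domains to the promoter named by the guide RNA, and ctrl-OE carried that system with non-targeting guides. In MEIS1-KO and MEIS2-KO the cells carried cutting Cas9 with a mixture of guides against the gene, and ctrl-KO carried cutting Cas9 with non-targeting guides. The knockouts were infected populations and not clones, and every treatment, controls included, received lentivirus. The labels do not say whether the 6 libraries of a treatment came from separate cultures, so that p-values measure the spread between these libraries, which may be technical.

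TALE proteins carry a homeodomain lengthened by a few residues in the loop between its helices. PBX proteins bind DNA together with a MEIS or PKNOX protein, and the MEIS or PKNOX partner also holds PBX in the nucleus. PKNOX1 and PKNOX2, also called PREP1 and PREP2, are therefore competitors of the MEIS proteins for PBX. TGIF1 and TGIF2 bind a DNA motif much like that of MEIS but act as repressors, which recruit corepressors and restrain SMAD and retinoid signalling.

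The gene counts of a library summed to 15429985 at the lowest and 22940493 at the highest (median 20324720), and levels are given as CPM, counts scaled to a common library size with TMM factors. The targeted gene moved as labelled in each case, with a log2(fold change) of 4.12 for MEIS1 in MEIS1-OE, 5.19 for MEIS2 in MEIS2-OE, -1.52 for MEIS1 in MEIS1-KO and -1.10 for MEIS2 in MEIS2-KO. All 8 neural stem cell markers checked, among them SOX2, NES and VIM, averaged at least 1 CPM, whereas the neuronal gene RBFOX3, the astrocyte gene GFAP, the pluripotency gene POU5F1 and the leukocyte gene PTPRC were near 0. At least 1 CPM was reached by all 4 mesenchymal markers (COL3A1 among them), 3 of 6 neuronal, 1 of 4 astrocyte, 1 of 5 oligodendrocyte lineage, 1 of 3 pluripotency and 2 of 3 microglia and blood markers. In bulk RNA, fewer cells that express a gene and less of its RNA per cell cannot be told apart.

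The promoters of the members were searched for the letters that these proteins prefer, since MEIS1 and MEIS2 were the factors changed. RefSeq sequences of 300 bases (250 before and 50 after the start site, GRCh38.p14) were at hand for 7 members, with 15 start sites in all, and PKNOX2 was not among them. The MEIS and PKNOX consensus TGACAG, searched on both strands, was found in 4 of these 15 sequences and in 15.8% of 35116 promoters of the same length. These 4 belonged to PBX3, TGIF1 and TGIF2, and their surroundings are shown with the motif, in either orientation, in capitals:
PBX3, chr9:125748152-125748179, plus strand, motif 20 bases before the start site: actttgccgagCTGTCAccctcccgctg
TGIF1, chr18:3447410-3447437, plus strand, motif 121 bases before a start site: ctggaagggacTGACAGagctagaaatg
TGIF1, chr18:3450017-3450044, plus strand, motif 144 bases before another start site: cgagggacgagTGACAGcggccgccgcg
TGIF2, chr20:36573614-36573641, plus strand, motif 28 bases after a start site: ccagccgcgagCTGTCAggccgagtgtc
The second of these TGIF1 start sites had a further match 4 bases after the start. The PBX-HOX letters TGATNNAT were found in 3 of the 15 sequences, all of TGIF1, and in 7.40% of all promoters. Neither motif was found in the sequences of MEIS3, PBX2, PBX4 or PKNOX1. The bases upstream of PKNOX1 are shown because PKNOX1 was the member that rose in both activations, described further on. They span 250 bases at chr21:42974312-42974561 on the plus strand and have a GC content of 79.2%:
PKNOX1: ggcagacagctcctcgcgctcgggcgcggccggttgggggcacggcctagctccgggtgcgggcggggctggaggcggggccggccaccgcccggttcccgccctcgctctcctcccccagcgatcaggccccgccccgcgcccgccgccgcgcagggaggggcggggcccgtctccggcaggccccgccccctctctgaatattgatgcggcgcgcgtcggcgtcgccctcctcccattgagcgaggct
A match describes the letters of this window, and its absence says nothing of binding elsewhere.

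Levels of different genes were compared per kilobase (kb) of annotated exon sequence. PBX2, a broadly expressed PBX gene on chromosome 6 (GRCh37, chr6:32152510-32157979, minus strand), had the highest level per length of the 8, at 64.6 CPM per kb in ctrl-OE and 59.5 CPM per kb in ctrl-KO. TGIF2 followed with 21.6 and 26.7 CPM per kb, MEIS3 with 19.9 and 16 CPM per kb and PBX3 with 11.3 and 15.6 CPM per kb, each in ctrl-OE and ctrl-KO. PKNOX2 had 8.05 CPM per kb in ctrl-OE and 14 CPM per kb in ctrl-KO. TGIF1 had 6.79 and 8.66 CPM per kb, PKNOX1 had 2.98 and 2.67 CPM per kb, and PBX4 was lowest with 1.19 and 1.13 CPM per kb. MEIS1 in the same controls had 1.63 and 2.35 CPM per kb and MEIS2 had 1.9 and 2.17 CPM per kb, which was below every member but PBX4. In MEIS1-OE, MEIS1 reached 28.4 CPM per kb, and in MEIS2-OE, MEIS2 reached 69.2 CPM per kb. With the longest annotated transcript as length, MEIS3 stood above TGIF2 in ctrl-OE at 46.5 against 25 CPM per kb, and TGIF1 above PKNOX2 at 17.4 against 11.6 CPM per kb. In ctrl-KO the same pairs changed places with that length, and MEIS1 and MEIS2 stood above PKNOX1.

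**Figure D1:**
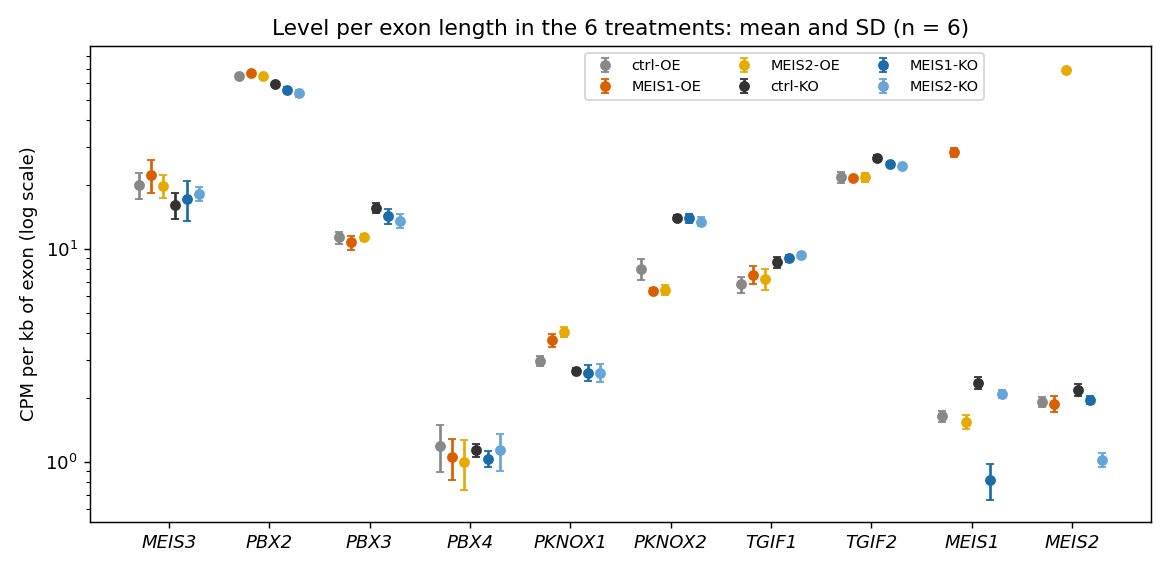
Level of the 8 members and of MEIS1 and MEIS2 in CPM per kb of exon on a log axis, by treatment (points, mean; bars, SD, n = 6). PBX2 is highest at 64.6 CPM per kb in ctrl-OE and PBX4 lowest at 1.19, and MEIS1 and MEIS2 stand far above their controls only in their own activation.

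The spread between libraries of a treatment differed between the members. The SD of PBX2 was between 1.7 and 3.67% of its mean in each treatment, whereas that of MEIS3 was between 7.16 and 21.2%. PBX4 rested on 28 to 84 counts per library and had an SD of 6.84 to 26.4% of its mean. The other members had at least 299 counts in every library.

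**Figure D2:**
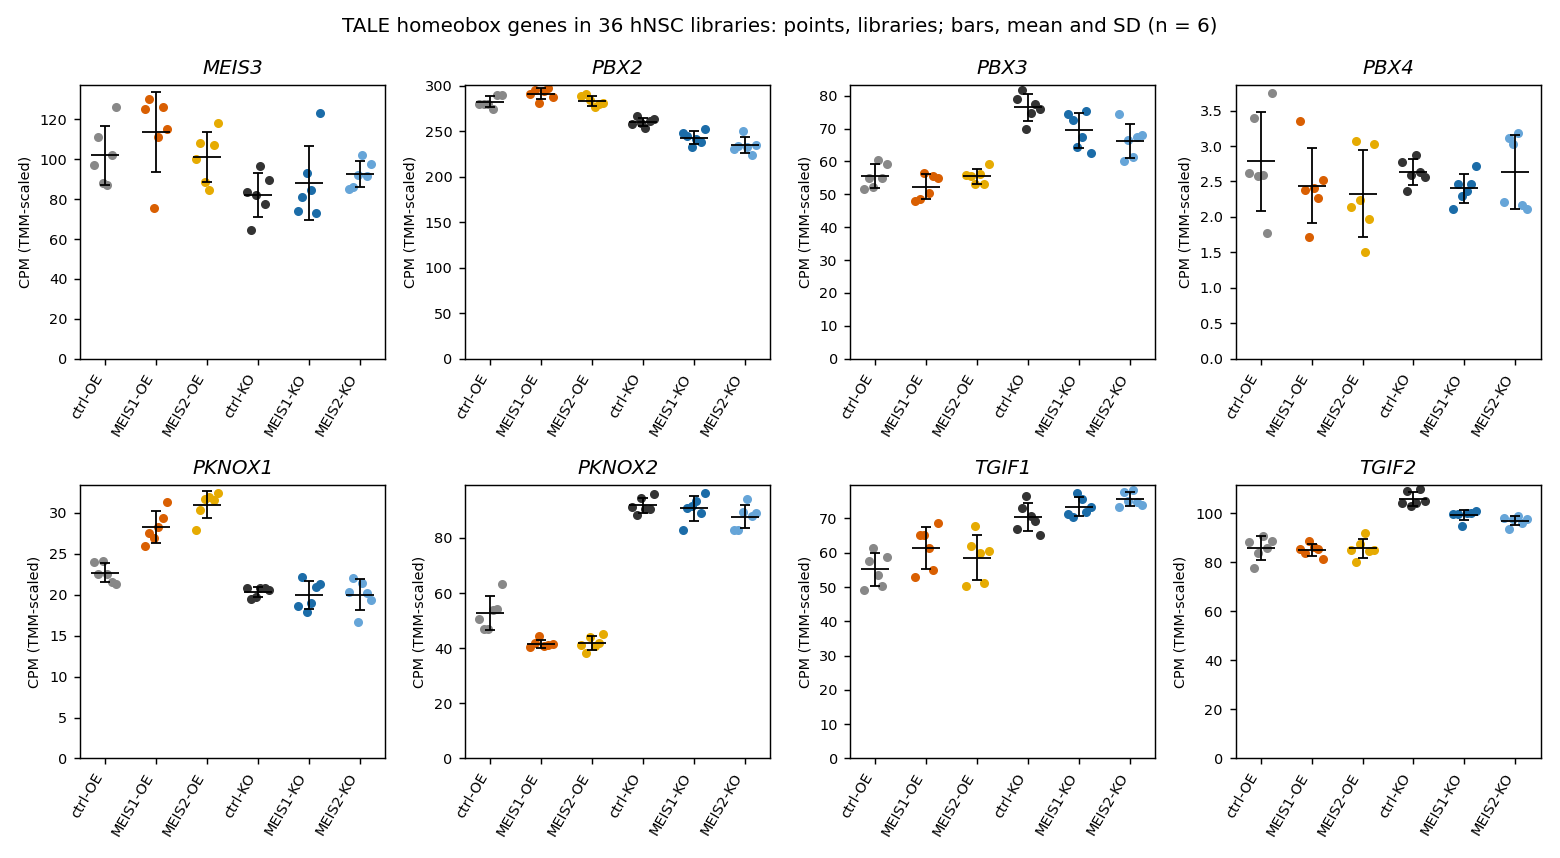
TMM-scaled CPM of each member in each of 36 libraries, by treatment (points, libraries; bars, mean and SD, n = 6; axes start at 0). PKNOX1 is raised and PKNOX2 lowered in MEIS1-OE and MEIS2-OE, and PBX2, PBX3 and TGIF2 are lowered in MEIS2-KO.

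Activation of either MEIS gene was accompanied by more PKNOX1 mRNA and less PKNOX2 mRNA, while no other member passed the test. PKNOX1 lies on chromosome 21 (GRCh37, chr21:44394620-44454041, plus strand) and overlaps no other annotated gene. Its level was 21.3, 22.5 and 24.1 CPM (lowest, median and highest library) in ctrl-OE, 26, 28 and 31.4 CPM in MEIS1-OE and 27.9, 31.6 and 32.4 CPM in MEIS2-OE. All libraries of both activations lay above all of ctrl-OE. The log2(fold change) was 0.32 ± 0.06 (SE, adjusted p = 0.00022 in the edgeR test across all genes) in MEIS1-OE, a rise of 24.6%. In MEIS2-OE it was 0.45 ± 0.06 (SE, adjusted p = 2.1e-06 from the same edgeR test), a rise of 36.6%.

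PKNOX2, the PREP paralog known for expression in brain and muscle, lies on chromosome 11 (GRCh37, chr11:125034583-125303285, plus strand), where long noncoding RNA genes overlap it on both strands. It was at 46.8, 52.2 and 63.3 CPM in ctrl-OE, 40.4, 41.2 and 44.3 CPM in MEIS1-OE and 38.4, 41.4 and 45.1 CPM in MEIS2-OE. Again the groups did not overlap, with all 6 libraries of each activation below all of ctrl-OE. PKNOX2 fell by 0.34 on the log2 scale (SE 0.05, adjusted p = 1.4e-05 from edgeR) in MEIS1-OE, where it fell by 20.9%. In MEIS2-OE it fell by 0.33 (SE 0.05, adjusted p = 0.00011 from edgeR) and so fell by 20.4%. Both activations were compared with the same ctrl-OE libraries, so that they are not independent of each other. The 6 neuron markers summed to 42.9 to 52.8 CPM in MEIS1-OE and 38.3 to 41.8 CPM in ctrl-OE, without overlap. In MEIS2-OE they summed to 37.4 to 44.8 CPM. SYT1, with a mean of 43.9 CPM over all libraries, weighed most in this sum. RBFOX3, STMN2 and DCX averaged 0.0096, 0.08 and 0.467 CPM. The part of these markers in the differences was not tested. The 2 members called were 2 of 8 in MEIS1-OE, where 9.09% of all tested genes were called, and 2 of 8 in MEIS2-OE, where 1.35% were called. None passed the size threshold of the study, an absolute log2(fold change) above 0.58, which 2.84% of all tested genes passed in MEIS1-OE and 0.498% in MEIS2-OE.

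The ratio of PKNOX2 to PKNOX1 per kb of exon was 2.72 ± 0.443 (SD, n = 6) in ctrl-OE, 1.72 ± 0.137 in MEIS1-OE and 1.58 ± 0.094 in MEIS2-OE. In the knockout system it was 5.25 ± 0.217 in ctrl-KO, 5.31 ± 0.459 in MEIS1-KO and 5.16 ± 0.63 in MEIS2-KO. PKNOX2 thus exceeded PKNOX1 per length in every library, from 1.47-fold in 1 MEIS2-OE library to 6.26-fold in 1 MEIS2-KO library. The ratio was formed after the values of both genes were seen and is given without a test.

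**Figure D3:**
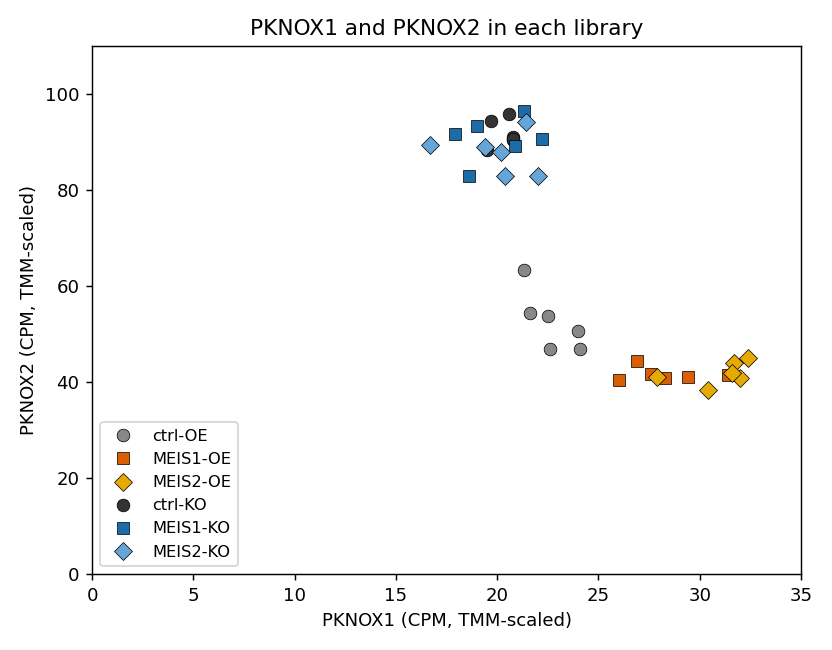
PKNOX2 against PKNOX1 in CPM in each of 36 libraries, with color and marker shape giving the treatment. The MEIS1-OE and MEIS2-OE libraries lie to the right of and below ctrl-OE (PKNOX1 at least 26 CPM, PKNOX2 at most 45.1 CPM), and the 18 libraries of the knockout system lie together at 82.9 CPM of PKNOX2 or more.

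Knockout moved neither gene past the test. PKNOX1 was at 19.5, 20.7 and 20.8 CPM in ctrl-KO, 17.9, 20 and 22.2 CPM in MEIS1-KO and 16.7, 20.3 and 22 CPM in MEIS2-KO, and the 3 groups overlapped. Its log2(fold change) was -0.03 (95% interval -0.15 to 0.10) in MEIS1-KO and -0.03 (-0.15 to 0.10) in MEIS2-KO. PKNOX2 was at 88.4, 90.9 and 95.8 CPM in ctrl-KO, 82.9, 91.2 and 96.4 CPM in MEIS1-KO and 83, 88.4 and 94.1 CPM in MEIS2-KO, again with overlap. Its log2(fold change) was -0.02 (-0.12 to 0.09) in MEIS1-KO and -0.06 (-0.17 to 0.04) in MEIS2-KO. These intervals leave out changes as large as those in the activations. The mRNA of the targeted MEIS gene itself moved less in the knockouts, however. Its log2(fold change) was -1.52 in MEIS1-KO and -1.10 in MEIS2-KO, against 4.12 in MEIS1-OE and 5.19 in MEIS2-OE. These are mRNA values, and the loss of MEIS protein was not measured here.

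The direct comparison of MEIS1-OE with MEIS2-OE called 0 of the 8 members (edgeR and DESeq2), where edgeR called 7.75% of all tested genes. At an unadjusted p under 0.05 there was 1 member, and the share of all genes there is not given here. That member was PKNOX1, which was lower in MEIS1-OE by a log2(fold change) of -0.13 (95% interval -0.25 to -0.01, adjusted p = 0.208 from edgeR). For PKNOX2 the difference was -0.01 (-0.12 to 0.10). PBX2, PBX3 and TGIF2 had differences between -0.08 and 0.04.

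The remaining members in the activations gave the following values. TGIF1, a repressor of TGF-beta and retinoid responses on chromosome 18 (GRCh37, chr18:3411606-3459976, plus strand), was at 49.1, 55.7 and 61.4 CPM in ctrl-OE and 53, 63.3 and 68.8 CPM in MEIS1-OE. With groups that overlapped, the log2(fold change) was 0.15 ± 0.06 (SE, adjusted p = 0.142 from edgeR). MEIS3, the third MEIS paralog (GRCh37, chr19:47906381-47922784, minus strand), ranged from 75.7 to 130 CPM in MEIS1-OE and from 87.2 to 126 CPM in ctrl-OE, a log2(fold change) of 0.16 ± 0.11 (SE, adjusted p = 0.501 from edgeR). For PBX4, a less studied PBX gene (GRCh37, chr19:19672516-19729502, minus strand), the values were -0.19 ± 0.16 (SE) in MEIS1-OE and -0.26 ± 0.16 (SE) in MEIS2-OE, so that its changes were not resolved at this depth. In MEIS2-OE the 6 members other than the PKNOX genes had adjusted p-values of at least 0.819 in edgeR.

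In MEIS2-KO 3 of 8 members were called (PBX2, PBX3 and TGIF2), all lower than in ctrl-KO, where 10.0% of all tested genes were called and 5.98% were called lower. PBX2 was at 253, 260 and 266 CPM in ctrl-KO and 224, 233 and 250 CPM in MEIS2-KO, and all 6 knockout libraries lay below all controls. It fell by 0.15 on the log2 scale (SE 0.03, adjusted p = 0.00078 from edgeR), so that the level fell by 9.84%. PBX3, a PBX gene known for its role in hindbrain respiratory circuits and in leukemia with MEIS1 (GRCh37, chr9:128509624-128729656, plus strand), was at 69.9, 76.8 and 81.6 CPM in ctrl-KO and 60, 66.9 and 74.3 CPM in MEIS2-KO. The groups overlapped, with 5 of 6 knockout libraries below all controls. PBX3 fell by 0.21 (SE 0.06, adjusted p = 0.0127 from edgeR) and thus fell by 13.3%, but it did not pass without replicate 2, 4 or 5 of every treatment, with adjusted p-values of 0.118, 0.0572 and 0.0531.

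TGIF2, a SMAD-binding repressor (GRCh37, chr20:35201891-35222353, plus strand), was at 103, 105 and 110 CPM in ctrl-KO and 93.7, 97.7 and 98.9 CPM in MEIS2-KO, without overlap. It fell by 0.13 (SE 0.04, adjusted p = 0.0189 from edgeR), so that its level fell by 8.43%. The call was lost without replicate 1, 2 or 5 (adjusted p = 0.0552, 0.0685 and 0.137) and with only the compared groups in the edgeR fit (adjusted p = 0.0569). The read-through gene that spans TGIF2 averaged 0.424 CPM, and reads shared by both may have been left out of either count. The summed level of the 8 neural stem cell markers was 4330 to 4850 CPM in ctrl-KO and 4890 to 5980 CPM in MEIS2-KO, without overlap. VIM and NES, with means of 2450 and 1310 CPM over all libraries, weighed most in this sum. PAX6, also in the set, went the other way, with 37.2 CPM in ctrl-KO and 26.1 CPM in MEIS2-KO. The 3 microglia and blood markers summed to 2.7 to 2.98 CPM in ctrl-KO, 3.12 to 4.73 CPM in MEIS2-KO and 3.25 to 3.79 CPM in MEIS1-KO. Neither knockout overlapped ctrl-KO in these markers. The part of either marker set in the differences was not tested.

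In MEIS1-KO 0 of 8 members were called by edgeR, where 1.46% of all tested genes were called. At an unadjusted p under 0.05 there were 3 members, and DESeq2 called 1. The shares of all genes at these other criteria are not given here. PBX2 was at 232, 243 and 252 CPM, below all ctrl-KO libraries, with a log2(fold change) of -0.10 ± 0.03 (SE, adjusted p = 0.0717 from edgeR, 0.00389 from DESeq2). TGIF2 was at 94.9, 100 and 101 CPM, also below all of ctrl-KO, with -0.09 ± 0.04 (SE, adjusted p = 0.256 from edgeR). PBX3 was at 62.7, 70 and 75.3 CPM and overlapped the controls, with -0.14 ± 0.06 (SE, adjusted p = 0.273 from edgeR). Both knockouts share the ctrl-KO libraries. MEIS1-KO against MEIS2-KO called 0 of 8 members (edgeR and DESeq2; 0 at an unadjusted p under 0.05), where 0.0152% of all tested genes were called. The log2 differences (MEIS1-KO minus MEIS2-KO) were 0.05 (95% interval -0.01 to 0.11) for PBX2, 0.07 (-0.04 to 0.18) for PBX3 and 0.04 (-0.04 to 0.11) for TGIF2. TGIF1 and MEIS3 had log2(fold change) values of 0.10 ± 0.06 and 0.17 ± 0.12 (SE) in MEIS2-KO, with adjusted p-values of 0.34 and 0.4 in edgeR.

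**Figure D4:**
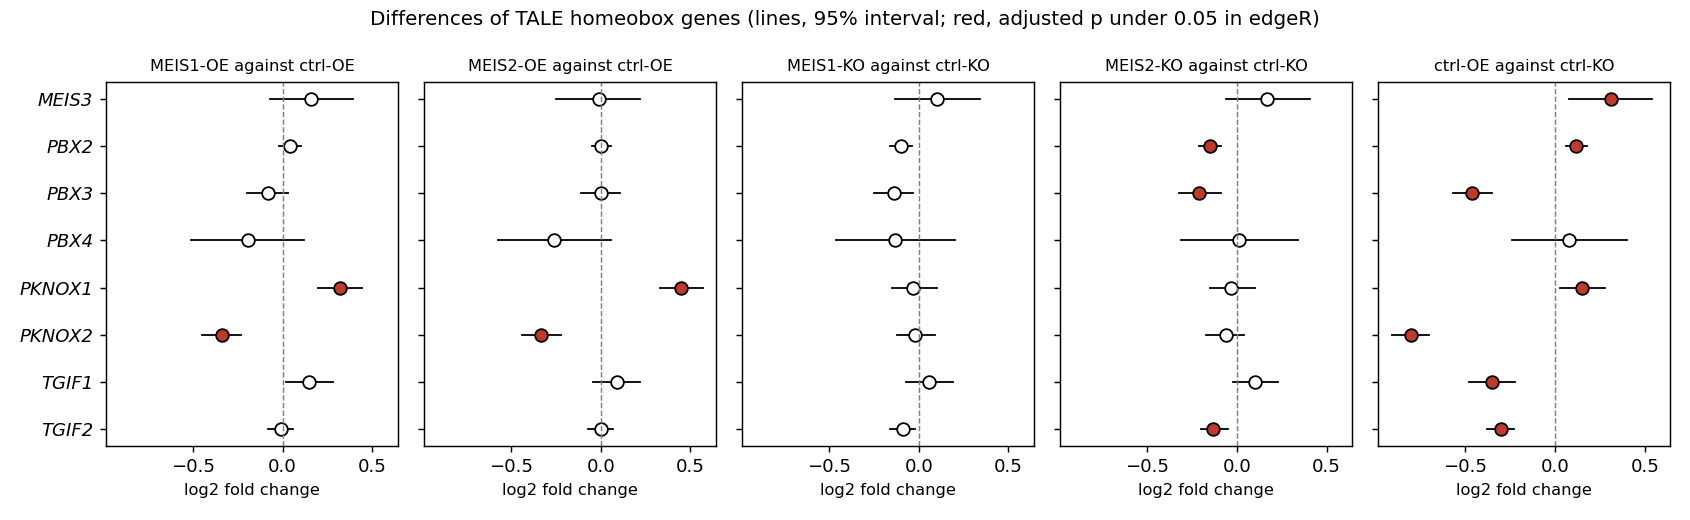
log2(fold change) of each member in the 4 comparisons of a treatment with its control and in ctrl-OE against ctrl-KO (points, estimate; lines, 95% interval; red, adjusted p under 0.05 in edgeR). PKNOX1 and PKNOX2 are called in both activations, PBX2, PBX3 and TGIF2 in MEIS2-KO, no member in MEIS1-KO, and 7 of 8 between the controls.

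The study combined activation and knockout of a gene by subtracting the knockout effect from the activation effect. In this MEIS1 contrast 3 of 8 members were called (3.48% of all tested genes), namely PKNOX1 at 0.34 ± 0.09 (SE, adjusted p = 0.0136 from edgeR), PKNOX2 at -0.32 ± 0.07 (adjusted p = 0.00711) and PBX2 at 0.14 ± 0.04 (adjusted p = 0.0417). In the MEIS2 contrast the called members were PKNOX1 at 0.48 ± 0.09 (SE, adjusted p = 0.00052 from edgeR), PKNOX2 at -0.26 ± 0.07 (adjusted p = 0.0455) and PBX2 at 0.15 ± 0.04 (adjusted p = 0.0298), again 3 of 8, against 2.56% of all tested genes. These contrasts reuse the libraries already described. PBX2 had a log2(fold change) of 0.04 in MEIS1-OE, so that most of its contrast came from the knockout arm, whereas the contrast of both PKNOX genes came from the activation arm. In the MEIS1 contrast neither PKNOX gene passed without replicate 4 or 5, nor PKNOX1 without replicate 6, and in the MEIS2 contrast PKNOX2 passed without replicate 3 but not without any other number. The PBX2 call was lost under 9 of 14 alternatives in the MEIS1 contrast and 8 of 14 in the MEIS2 contrast, and PKNOX2 was lost under 7 of 14 in the MEIS2 contrast.

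The 2 CRISPR systems also differed in these genes. Between ctrl-OE and ctrl-KO 7 of 8 members were called, 3 higher and 4 lower in ctrl-OE, but 51.4% of all tested genes were called as well (27.5% higher and 23.9% lower). PKNOX2 had the largest difference, a log2(fold change) of -0.80 ± 0.05 (SE, adjusted p = 7.5e-16 from edgeR), and it alone passed 0.58, as did 22.1% of all tested genes. PBX3, TGIF1 and TGIF2 were lower in ctrl-OE by log2(fold change) values of -0.46, -0.35 and -0.30, and in each case the 6 ctrl-OE libraries lay below all of ctrl-KO. PBX2 was higher by 0.12 and PKNOX1 by 0.15, both without overlap, and MEIS3 by 0.31 with overlap. The calls of MEIS3 and PKNOX1 depended on single replicate numbers, since MEIS3 did not pass without replicate 2 or 5 (edgeR adjusted p-values of 0.153 and 0.0703) and PKNOX1 not without replicate 1, 2 or 3 (adjusted p between 0.0747 and 0.0837). PBX4 differed by 0.08 (adjusted p = 0.7 from edgeR). The median over all tested genes was 0.0486 here and 0.195 when libraries were scaled by total counts only, and the 7 called members kept their sign and their call under that scaling. Their sizes moved, however, from 0.12 to 0.27 for PBX2, 0.15 to 0.30 for PKNOX1, 0.31 to 0.46 for MEIS3, -0.46 to -0.31 for PBX3, -0.35 to -0.20 for TGIF1, -0.30 to -0.16 for TGIF2 and -0.80 to -0.66 for PKNOX2. Neural stem cell markers summed to 2930 to 3800 CPM in ctrl-OE and 4330 to 4850 CPM in ctrl-KO, and mesenchymal markers to 267 to 440 CPM and 636 to 840 CPM. The neuron, astrocyte, oligodendrocyte lineage and pluripotent cell sets were likewise lower in ctrl-OE without overlap. Microglia and blood markers went the other way, with 7.56 to 10.9 CPM in ctrl-OE and 2.7 to 2.98 CPM in ctrl-KO. Their part in the differences was not tested, and activation machinery, knockout machinery and any preparation that went with them cannot be told apart.

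Over all 18 libraries of each system, PBX2, PKNOX2 and TGIF2 did not overlap between the systems, as was the case for 14.7% of all tested genes. PBX2 was at 274 to 297 CPM with activation machinery and 224 to 266 CPM with knockout machinery, PKNOX2 at 38.4 to 63.3 and 82.9 to 96.4 CPM, and TGIF2 at 77.5 to 91.8 and 93.7 to 110 CPM. When the 6 treatments were ordered by mean level, few neighbours differed in their own edgeR test. For PKNOX1 the steps from MEIS1-OE down to ctrl-OE and from ctrl-OE to ctrl-KO passed, and the first rank, MEIS2-OE at 31 CPM against 28.3 CPM in MEIS1-OE, did not. For PKNOX2 the steps from MEIS2-KO to ctrl-OE and from ctrl-OE to MEIS2-OE passed. PBX2, PBX3, TGIF1 and TGIF2 each had 1 such step, between the systems, and MEIS3 and PBX4 had none. In these steps between treatments of different systems other than the controls alone, many genes were called, with 48.2% of all tested genes between ctrl-OE and MEIS2-KO, 54.1% between MEIS1-OE and ctrl-KO and 49.2% between MEIS2-OE and MEIS2-KO.

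Genes that work with these proteins were looked up from lists of 7 Iroquois and Mohawk genes (the rest of the TALE family), 39 HOX genes, 14 cofactors, 10 genes of TGF-beta and retinoid X receptor signalling and 7 neural homeobox or paired-box genes. HOX genes, the classical partners of PBX, were hardly present: 0 of 39 averaged 1 CPM, 10 had no count in any library, and the highest, HOXB2, averaged 0.682 CPM. In each of the 4 comparisons with the control, 0 of the 10 HOX genes tested were called by edgeR. Over all tested genes, 9.09% were called in MEIS1-OE, 1.35% in MEIS2-OE, 1.46% in MEIS1-KO and 10.0% in MEIS2-KO. Of the 7 Iroquois and Mohawk genes, 5 were called between ctrl-OE and ctrl-KO, all lower in ctrl-OE. Between these controls 51.4% of all tested genes were called, and 23.9% were called lower. In the 4 comparisons of a MEIS treatment with its control only IRX2 was called, in MEIS2-KO, where it was 138 ± 11.1 CPM (SD, n = 6) against 180 ± 9.1 CPM in ctrl-KO, a log2(fold change) of -0.38 ± 0.07 (SE, adjusted p = 0.00069 from edgeR).

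Among 14 cofactors, 1 was called in MEIS1-OE, 0 in MEIS2-OE, 0 in MEIS1-KO and 3 in MEIS2-KO. The shares called over all tested genes were 9.09%, 1.35%, 1.46% and 10.0% in the same order. CRTC2, a CREB coactivator, was higher in MEIS1-OE by 0.25 ± 0.06 (SE, adjusted p = 0.00477 from edgeR). In MEIS2-KO the PBX-binding protein gene PBXIP1 was higher by 0.29 ± 0.07 (SE), and the corepressor genes SIN3A and HDAC2 were lower, with log2(fold change) values of -0.19 ± 0.04 and -0.17 ± 0.05 (SE, adjusted p between 0.00055 and 0.0234 from edgeR). Of the signalling genes, 2 are given here. RXRB, a retinoid receptor gene, rose by 0.17 ± 0.04 in MEIS1-OE, and SMAD4 had -0.20 ± 0.05 in MEIS2-KO (SE, adjusted p = 0.00746 and 0.00581 from edgeR). PAX6, a transcription factor of neural progenitors, was 37.2 ± 1.42 CPM (SD, n = 6) in ctrl-KO, 27.9 ± 3.84 CPM in MEIS1-KO and 26.1 ± 3.2 CPM in MEIS2-KO. Its log2(fold change) was -0.42 ± 0.10 and -0.52 ± 0.10 (SE, adjusted p = 0.0178 and 0.00069 from edgeR), and of the 5 genes tested in the neural list no other was called in a comparison of a MEIS treatment with its control. Between ctrl-OE and ctrl-KO 3 of the 5 were called, as were 51.4% of all tested genes.

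The genes whose levels moved most like each member were found by Pearson's r over 36 libraries, on log2 CPM after the mean of each CRISPR system was subtracted, among 13464 genes averaging at least 1 CPM. The libraries share their treatments and depth, so that these values describe the libraries and have no test. PKNOX1 was most like SPRY2 (r = 0.74), VGLL3 (0.73) and LPAR1 (0.72). PKNOX2 was most like TSPAN18 (0.77), SFRP2 (0.76) and RNF157 (0.74). MEIS3 had the closest companions, NPDC1, DGKZ and SLC4A2, each with r = 0.96, although it was not called in any of the 4 comparisons of a MEIS treatment with its control. PBX2 was most like RNF220 and SIRPA (0.76 each) and PNMAL1 (0.72), PBX3 like TSPAN13 (0.83), TMPO and H2AFV (0.81 each), and PBX4 like GRM2 (0.77), WDR90 (0.74) and RFX2 (0.72). TGIF1 was most like RND3 (0.75), S1PR1 (0.74) and BTG2 (0.71), and TGIF2 like TSC22D1 (0.77), UNG (0.76) and MTHFD1 (0.75).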

How the data were processed

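Poly-A RNA of 36 hNSC libraries was sequenced by the authors from both ends (100 bases, stranded kit) and trimmed with Trimmomatic 0.39. Reads were aligned to hg19 with STAR, given as version 2.4.2a in the study's text and 2.7.0a in the submitters' processing notes, and counted with HTSeq 0.6.0. The annotation and the strand setting are not given in the sources used here. The deposited values are raw read counts per gene symbol, without normalization. Reads that fall on overlapping genes or on near-identical copies may be lost or split by such counting, and pseudogenes of members without a row were not analysed here.

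Genes with at least 10 counts over all libraries were tested in one fit of 6 treatments without a block, with TMM scaling and two-sided quasi-likelihood tests in edgeR 4.0.16 (limma 3.58.1, R 4.3.3). In each comparison, Benjamini-Hochberg adjustment covered all 19689 genes, and calls required an adjusted p under 0.05. The standard error is the log2 fold change divided by the root of F. The biological coefficient of variation was 0.0915. Libraries of a treatment differed beyond counting error (chi-square per degree of freedom 2.63 to 36.0), so none was a copy of another in its treatment. Pairs across treatments were not compared in this way. The procedure was tested on simulated data. Gene positions and exon lengths are from GENCODE on GRCh37, and promoters from RefSeq on GRCh38.p14. Python 3.11.15, numpy 2.4.6, pandas 2.3.3 and matplotlib 3.10.9 were used.

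The genes named are the 8 members, MEIS1 and MEIS2, up to 4 called genes of each other list by smallest p over the 4 comparisons with a control (or up to 3 by level where none was called), and the 3 most similar genes per member. Results of some listed genes are not reported here. Cell type markers and neighbours of the PKNOX genes were named beside these. Members and lists were chosen with earlier results of these data known. Alternatives were RLE size factors, filterByExpr or no filter, a prior count of 2, the groups compared alone, a replicate block, each replicate number left out, and DESeq2 1.42.0. Scaling by total counts only was added after the data were seen.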

Additional observations from a re-analysis of the deposited data

Results flagged for a closer look

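Of 48 groups of 6 libraries (8 members in 6 treatments), 3 held a library that stood apart from the others by Dixon's criterion at the 95% level, which chance reaches in about 1 group in 20. MEIS3 was at 75.7 CPM in replicate 3 of MEIS1-OE, with the other libraries at 111 to 130 CPM. In the same library PKNOX2 was at 44.3 CPM, above the others at 40.4 to 41.7 CPM, and still below all ctrl-OE libraries. TGIF2 was at 94.9 CPM in replicate 3 of MEIS1-KO, with the others at 99.6 to 101 CPM.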

How the results depend on the processing

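Across 14 alternatives and 9 comparisons, 963 of 1008 values of single members kept their side of the threshold, 41 lost a call and 4 gained one. The sign differed from the reported one in 47 values, of which 0 were called in either fit. The rise of PKNOX1 and the fall of PKNOX2 in MEIS1-OE and MEIS2-OE passed under all 14 alternatives, with log2(fold change) from 0.27 to 0.50 and from -0.39 to -0.28, and so did the fall of PBX2 in MEIS2-KO. In MEIS1-KO 1 member in place of 0, PBX2, was called with total counts only, with filterByExpr and with DESeq2. With each replicate number left out in turn, between 1 and 3 members were called in MEIS2-KO (1 without replicate 2 or 5), between 0 and 2 in the MEIS1 contrast (0 without replicate 4 or 5), and between 1 and 3 in the MEIS2 contrast (3 without replicate 3, otherwise 1). Without a filter on low counts 1 member was called in the MEIS2 contrast. The cause was not tested.

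Deviations from the treatment means were hardly shared by same-numbered libraries (mean correlation 0.0361, 16 of 90 pairs above 0.1, against -0.00732 for other pairs), so the numbers were not taken to pair the samples. With the replicate block 3 members in place of 2 were called in MEIS1-OE, the added one being TGIF1 (adjusted p = 0.0348 from edgeR), 2 in MEIS2-OE, 0 in MEIS1-KO, 3 in MEIS2-KO, 7 between the controls and 3 in each contrast. Total-count scaling moved 19 of 48 levels by more than 1 SD, and the longest transcript as length moved all 48 levels per kb. Total-count scaling also moved the share of all calls that were higher from 60.7 to 46.6% in MEIS1-OE, from 40.3 to 51% in MEIS2-KO, from 54.1 to 41.2% in the MEIS2 contrast and from 53.5 to 71.2% between the controls. Differences of PBX4 were limited by its 28 to 84 counts per library.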

Other observations

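Genes within 100 kb of the PKNOX genes were examined after the values of PKNOX1 and PKNOX2 were seen. Near PKNOX1, 4 tested genes (WDR4, NDUFV3, CBS and U2AF1) gave 0 calls in MEIS1-OE and 0 in MEIS2-OE. Near PKNOX2, 3 tested genes (SLC37A2, TMEM218 and FEZ1) gave 0 calls in either activation (edgeR, adjusted p under 0.05). Over all tested genes, 9.09% were called in MEIS1-OE and 1.35% in MEIS2-OE. With so few genes, 0 calls do not set these neighbours apart from other genes.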
